A study of Mus musculus with 6 samples.

Results

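Albumin and 32 other transcripts of liver cells were followed through RNA libraries made from mouse cornea. The 33 genes were taken by name, as a list of hepatocyte genes, and all 33 were found among the 22007 gene symbols of the count tables. The list was drawn up with the difference between the groups in view, so that difference is given as a description and no test of it is offered for the 33 genes. The open-field blast injury (OFBI) group consisted of corneas from male C57BL/6J mice that had been exposed, awake, to 1 detonation of C-4 explosive, 350 g of it, from 3 m away and whose eyes were sampled 12 months later. The Naive group consisted of corneas from male C57BL/6J mice that also carried the 12-month label. There were 3 libraries a group, made from pooled corneas. How many corneas went into a pool, and how old the mice were, is not stated in the labels. The question followed here is whether the liver transcripts rose and fell with library depth, and whether they kept fixed proportions to each other.

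Hepatocytes are the main cells of the liver and the main source of plasma proteins such as albumin, the apolipoproteins, the fibrinogen chains and the protease inhibitors of the serpin family. They also hold the urea cycle, much of amino acid breakdown and the cytochromes P450 that oxidise drugs and steroids. In male mice they secrete the major urinary proteins, small pheromone carriers encoded by the Mup gene cluster. The cornea is a transparent tissue without blood vessels, built of an epithelium, a collagen-rich stroma and an endothelium. Ass1, Cps1 and Apoc1 are known outside the liver as well, in arginine-making cells, in the gut and in macrophages.

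Library totals were 3410476, 3355422 and 1173472 estimated counts in OFBI replicates 1 to 3 and 47809779, 43053764 and 41971752 in Naive replicates 1 to 3. Naive libraries were thus 16.7 times deeper on average, and depth and group cannot be told apart across the 6 libraries. OFBI replicate 3 was the shallowest, at 0.347 times the mean total of OFBI replicates 1 and 2. Counts above 0 were present for 47.0% to 57.4% of genes in OFBI libraries and for 72.4% to 72.9% in Naive libraries. Between 39.4% and 50.5% of the values of 1 to 40 were multiples of 4, so about 4 estimated counts may stand for 1 sequenced fragment. A count of 4 to 12 is then 1 to 3 fragments, and intervals below were computed on counts divided by 4 and cover counting error only. Corneal markers were abundant in every library. The summed level of 14 corneal epithelium genes was 65910 to 84290 CPM (counts-per-million, scaled by the trimmed mean of M-values, TMM) in OFBI libraries and 34440 to 36790 CPM in Naive libraries. In bulk tissue, more cells of a type and more RNA per cell cannot be told apart.

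Promoters of liver genes can carry sites for the factors that keep hepatocyte genes active. Of the liver genes, 4 promoters are shown because they belong to genes on which the results turn. Each is the 250 bases before the start site that RefSeq gives on GRCm38.p6, read 5′ to 3′ on the gene's own strand, and capitals mark GTTAAT or its reverse complement ATTAAC, the core that hepatocyte nuclear factor 1 (HNF1) binds. The windows lie at chr5:90460620-90460869 on the plus strand, chr3:83049864-83050113 on the minus strand, chr12:103738190-103738439 on the minus strand and chr9:46228380-46228629 on the plus strand. Apoa1 is shown beside the others because its window holds no copy of this core.
Alb: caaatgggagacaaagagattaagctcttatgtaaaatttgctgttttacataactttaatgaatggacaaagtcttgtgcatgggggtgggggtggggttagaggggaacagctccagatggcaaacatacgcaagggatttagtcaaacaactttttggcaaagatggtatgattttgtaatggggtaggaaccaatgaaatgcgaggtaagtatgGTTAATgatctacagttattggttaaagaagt
Fgb: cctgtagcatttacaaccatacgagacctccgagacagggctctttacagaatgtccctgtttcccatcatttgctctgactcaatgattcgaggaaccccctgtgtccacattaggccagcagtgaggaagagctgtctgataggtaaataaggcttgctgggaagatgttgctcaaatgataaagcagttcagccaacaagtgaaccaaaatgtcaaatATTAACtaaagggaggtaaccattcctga
Serpina1b: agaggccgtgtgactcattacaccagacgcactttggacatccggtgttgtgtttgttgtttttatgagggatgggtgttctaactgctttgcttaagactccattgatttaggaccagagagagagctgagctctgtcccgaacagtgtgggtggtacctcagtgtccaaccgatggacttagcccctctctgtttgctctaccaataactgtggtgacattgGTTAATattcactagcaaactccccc
Apoa1: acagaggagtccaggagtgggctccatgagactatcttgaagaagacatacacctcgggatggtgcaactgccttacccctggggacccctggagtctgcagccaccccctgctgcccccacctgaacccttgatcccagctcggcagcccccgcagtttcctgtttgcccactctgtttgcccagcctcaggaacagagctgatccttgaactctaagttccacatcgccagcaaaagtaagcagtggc
A RefSeq window was found for 26 of the 33 genes. The HNF1 core, searched on both strands, was present in 7 of these 26, or 26.9%, and in 7.49% of the windows of 27025 genes. The 7 genes were Alb, Fabp1, Fga, Fgb, Gc, Serpina1a and Serpina1b. The motif TTGCNNAA of the C/EBP factors was present in 8 of 26 windows, or 30.8%, against 10.8% of all windows. The letters TATAAA of the TATA box were present in 26.9% of the windows of liver genes and in 14.3% of all windows. The HNF4 core CAAAGTCCA was found in the window of Cyp3a11 alone, or 3.85% of the windows of liver genes, against 0.451% of all windows. None of the 4 motifs contains another, and a match describes letters and not a bound factor.

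**Figure D1:**
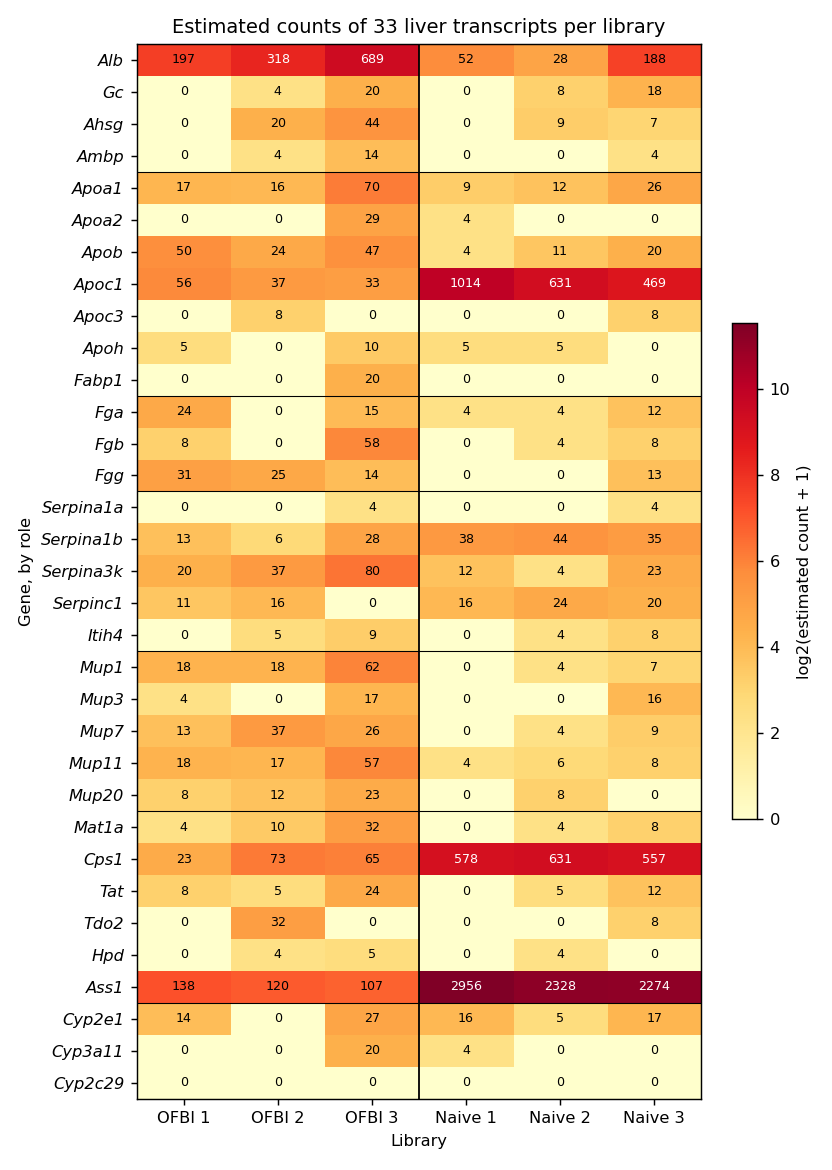
Estimated counts of the 33 liver transcripts in each of the 3 OFBI and 3 Naive libraries, with genes in rows grouped by role, the count printed in each cell and the colour on a log2(count + 1) scale. Within the OFBI group, 22 of the 33 genes have their highest count in replicate 3, the shallowest library, while Apoc1, Cps1 and Ass1 are far higher in the Naive libraries.

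Summed over the 33 genes, the counts were 680, 848 and 1649 in OFBI replicates 1 to 3 and 4716, 3787 and 3779 in Naive replicates 1 to 3. On the CPM scale this was 210, 272 and 1542 in OFBI libraries and 93.2, 81.7 and 83.3 in Naive libraries. The mean was 675 ± 752 CPM in OFBI and 86.0 ± 6.23 CPM in Naive libraries (SD, n = 3 each), a 7.84-fold higher mean in OFBI. The SD of the OFBI group exceeded its mean, because OFBI replicate 3 lay far above the other two.

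Apoc1, Cps1 and Ass1 had more than 200 counts in every Naive library, and this split was made after their values were seen. Without them, the remaining 30 genes summed to 463, 618 and 1444 counts in OFBI libraries and to 168, 197 and 479 counts in Naive libraries. In total this was 2525 counts in OFBI and 844 counts in the far deeper Naive group. Scaled to depth, the 30 genes stood at 143, 198 and 1351 CPM in OFBI libraries and at 3.32, 4.25 and 10.6 CPM in Naive libraries. These values did not overlap, and the OFBI mean was 93.3-fold above the Naive mean. OFBI replicates 1 and 2 alone averaged 28.2-fold above the Naive mean, and OFBI replicate 3 was 224-fold above it. As a share of a whole library, the 30 genes made up 0.0136%, 0.0184% and 0.123% of the counts in OFBI libraries and 0.000351%, 0.000458% and 0.00114% in Naive libraries. Before TMM scaling, OFBI replicate 3 stood at 1231 CPM (95% exact binomial interval 1107 to 1364) and Naive replicate 3 at 11.4 CPM (9.48 to 13.7).

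**Figure D2:**
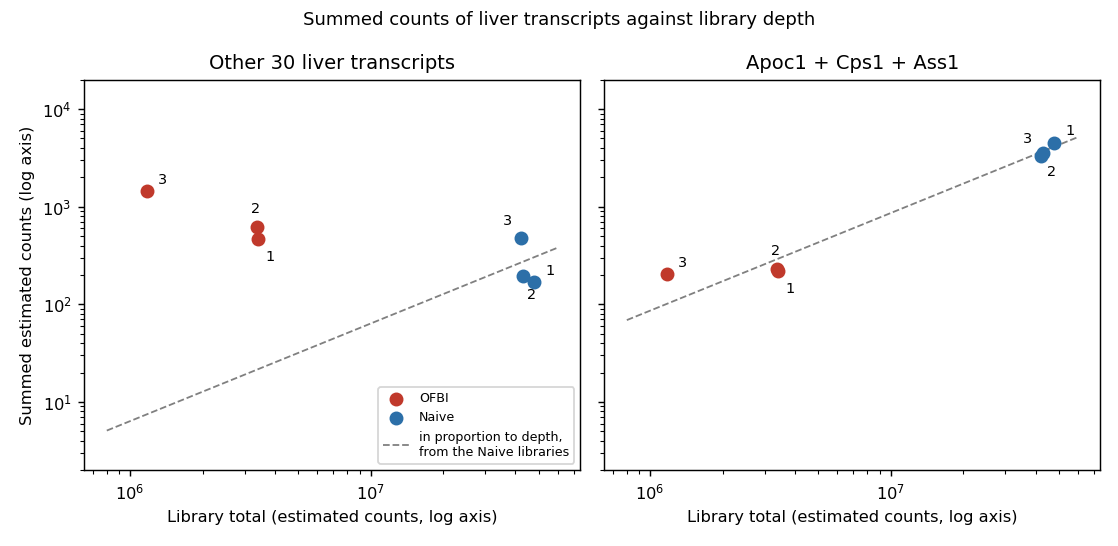
Summed estimated counts of 30 liver transcripts (left) and of Apoc1, Cps1 and Ass1 (right) against the library total, both on log axes, with 1 numbered point per library, OFBI in red and Naive in blue. The dashed line shows counts in proportion to depth, drawn from the Naive libraries; the 30 transcripts lie far above it in OFBI libraries, and Apoc1, Cps1 and Ass1 lie near it in OFBI replicates 1 and 2 and above it in OFBI replicate 3.

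Ass1, Apoc1 and Cps1 had 217, 230 and 205 counts together in OFBI libraries and 4548, 3590 and 3300 in Naive libraries. Their summed level was 67.1, 73.6 and 192 CPM in OFBI libraries and 89.9, 77.4 and 72.7 CPM in Naive libraries. Ass1, the urea cycle enzyme that makes argininosuccinate, had 138, 120 and 107 counts in OFBI and 2956, 2328 and 2274 in Naive libraries. At 60.4 ± 34.4 CPM in OFBI and 52.9 ± 4.76 CPM in Naive libraries (SD, n = 3 each), its log2 fold change was 0.15, within the spread of the OFBI libraries. The sign turned under other choices, to -0.06 with library size as the only scaling, to -0.23 with limma-voom and to -0.39 without OFBI replicate 3. Apoc1, an apolipoprotein of lipoprotein particles, had 56, 37 and 33 counts in OFBI and 1014, 631 and 469 in Naive libraries. Its log2 fold change was 0.40 with all libraries and -0.02 without OFBI replicate 3. Cps1, the mitochondrial enzyme that feeds ammonia into the urea cycle, had 23, 73 and 65 counts in OFBI and 578, 631 and 557 in Naive libraries. The 3 Naive values of Cps1 lay close together, at 11.4, 13.6 and 12.3 CPM, while those of OFBI ran over 7.11, 23.4 and 60.8 CPM.

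Among the serum carriers, Alb, which encodes albumin, had 197, 318 and 689 counts in OFBI libraries and 52, 28 and 188 in Naive libraries. Its level was 60.9, 102 and 644 CPM in OFBI and 1.03, 0.604 and 4.14 CPM in Naive libraries. All OFBI libraries lay above all Naive libraries, with means of 269 ± 326 and 1.92 ± 1.93 CPM (SD, n = 3 each) and a log2 fold change of 7.10 (SE 1.28), or 5.40 without OFBI replicate 3. Ahsg, which encodes the plasma glycoprotein fetuin-A, had 0, 20 and 44 counts in OFBI and 0, 9 and 7 in Naive libraries, so the groups overlapped at 0. Gc, the vitamin D binding protein, had 0, 4 and 20 counts in OFBI and 0, 8 and 18 in Naive libraries. Ambp, the precursor of alpha-1-microglobulin, had 0, 4 and 14 counts in OFBI and 0, 0 and 4 in Naive libraries. In both groups the third replicate held the highest count of Alb, Gc and Ambp.

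Among the apolipoproteins, Apoa1, the main protein of high-density lipoprotein, had 17, 16 and 70 counts in OFBI and 9, 12 and 26 in Naive libraries. It stood at 5.26, 5.12 and 65.5 CPM in OFBI and at 0.178, 0.259 and 0.573 CPM in Naive libraries, without overlap, with a log2 fold change of 6.15 (SE 1.31), or 3.93 without OFBI replicate 3. Apob, the large scaffold protein of low-density lipoprotein, had 50, 24 and 47 counts in OFBI and 4, 11 and 20 in Naive libraries, again without overlap in CPM. Its counts in OFBI replicates 1 and 3 were alike, unlike those of Apoa1. Apoa2, another protein of high-density lipoprotein, had 29 counts in OFBI replicate 3 and 0 in OFBI replicates 1 and 2, against 4, 0 and 0 in Naive libraries. Fabp1, the liver fatty acid binding protein, had 20 counts in OFBI replicate 3 and 0 in every other library. Pooled over the OFBI group, Fabp1 was 27.9-fold above a floor of 12 counts, or 3 fragments, over the Naive libraries together. That value rests on OFBI replicate 3 alone and leaves out the counting error of its few fragments. Apoc3 and Apoh, both carried on plasma lipoproteins, summed to 8 and 15 counts in OFBI and to 8 and 10 in Naive libraries.

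The fibrinogen chains form 1 clotting protein from 3 neighbouring genes, yet the libraries did not hold them in equal measure. Fgb had 8, 0 and 58 counts in OFBI and 0, 4 and 8 in Naive libraries. Fgg had 31, 25 and 14 counts in OFBI and 0, 0 and 13 in Naive libraries. Fga had 24, 0 and 15 counts in OFBI and 4, 4 and 12 in Naive libraries. In counts, Fgb was thus highest in OFBI replicate 3 and Fgg lowest there, and only Fgg was above 0 in all 3 OFBI libraries. Scaled to depth, Fgg too was highest in OFBI replicate 3, at 9.583, 8.003 and 13.09 CPM in OFBI replicates 1 to 3. In CPM, Fgg averaged 10.2 ± 2.61 in OFBI and 0.0955 ± 0.165 in Naive libraries (SD, n = 3 each) and the groups did not overlap. Pooled over each group and scaled by library totals, Fgg was 90.1 times higher in OFBI (95% exact interval 29.3 to 532, on 18 and 3 fragments) and Fgb 92.0 times higher (25.5 to 478, on 16 and 3 fragments). These intervals leave out the spread between libraries, which was wide for Fgb. The genes were chosen on this contrast, so the intervals are descriptions and not tests.

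Among the protease inhibitors, Serpina3k, a mouse relative of antichymotrypsin, had 20, 37 and 80 counts in OFBI and 12, 4 and 23 in Naive libraries. It stood at 6.18, 11.9 and 74.8 CPM in OFBI and at 0.237, 0.0863 and 0.507 CPM in Naive libraries, with a log2 fold change of 6.72 (SE 1.26), or 5.00 without OFBI replicate 3. Serpina1b, an alpha-1-antitrypsin gene, had 13, 6 and 28 counts in OFBI and 38, 44 and 35 in Naive libraries. Unlike Alb and Serpina3k, it was about as high in the 3 Naive libraries, at 0.751, 0.949 and 0.771 CPM, and stood at 4.02, 1.92 and 26.2 CPM in OFBI libraries. Its log2 fold change was 3.60 (SE 1.04), or 1.84 without OFBI replicate 3. Serpina1a, its near copy, had 4 counts in the third replicate of each group and 0 elsewhere. Of the 100-base windows of their longest coding transcripts in GENCODE, 47.4% for Serpina1a and 19.2% for Serpina1b occur in another of the 5 Serpina1 genes, so reads may have been split among them. Serpinc1, which encodes antithrombin, had 11, 16 and 0 counts in OFBI and 16, 24 and 20 in Naive libraries. Itih4, an inter-alpha-inhibitor heavy chain, had 0, 5 and 9 counts in OFBI and 0, 4 and 8 in Naive libraries.

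The major urinary protein genes Mup1, Mup3, Mup7, Mup11 and Mup20 summed to 61, 84 and 185 counts in OFBI and to 4, 22 and 40 in Naive libraries. Mup1 had 18, 18 and 62 counts in OFBI and 0, 4 and 7 in Naive libraries. Mup11 had 18, 17 and 57 counts in OFBI and 4, 6 and 8 in Naive libraries, a profile almost identical to that of Mup1. Pooled and scaled likewise, Mup1 was 149 times higher in OFBI (95% exact interval 40.7 to 694, on 24 and 3 fragments). This interval too leaves out the spread between libraries and is a description. Mup7 had 13, 37 and 26 counts in OFBI and 0, 4 and 9 in Naive libraries, with its highest count in OFBI replicate 2. Mup20, known as darcin, had 8, 12 and 23 counts in OFBI and 0, 8 and 0 in Naive libraries. Mup3 had 4, 0 and 17 counts in OFBI and 0, 0 and 16 in Naive libraries. The cluster holds near-identical copies: 87.2%, 83.5% and 80.1% of the 100-base windows of the Mup1, Mup11 and Mup7 transcripts occur in another of 22 Mup genes, against 2.94% for Mup3 and 0 for Mup20. Values of Mup1, Mup7 and Mup11 are therefore uncertain one by one, while Mup20 can be read alone.

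Over all 21 Mup genes in the tables, the counts were 139, 115 and 384 in OFBI and 8, 30 and 50 in Naive libraries. On the CPM scale the family averaged 146 ± 184 in OFBI and 0.636 ± 0.472 in Naive libraries (SD, n = 3 each), and no OFBI library overlapped a Naive one. Mup10, which is not among the 33 genes, had 19, 0 and 74 counts in OFBI and 0 in every Naive library. Pooled, it was 130-fold above the same floor, without its own counting error. Mup2, Mup9, Mup15 and Mup17 were also at 0 in all Naive libraries, with 40, 60, 24 and 38 summed OFBI counts. Mup4, which is known from lacrimal and nasal glands, was at 0 in all 6 libraries.

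Among the enzymes of amino acid metabolism, Mat1a, the liver methionine adenosyltransferase, had 4, 10 and 32 counts in OFBI and 0, 4 and 8 in Naive libraries. Tat, tyrosine aminotransferase, had 8, 5 and 24 counts in OFBI and 0, 5 and 12 in Naive libraries, without overlap in CPM. Tdo2, which opens the tryptophan ring, had 32 counts in OFBI replicate 2, 0 in OFBI replicates 1 and 3, and 0, 0 and 8 in Naive libraries. Tdo2 was thus present in a library where Fga and Fgb were at 0. Hpd, the next tyrosine enzyme, had 0, 4 and 5 counts in OFBI and 0, 4 and 0 in Naive libraries. Among the cytochromes P450, Cyp2e1, which oxidises ethanol, had 14, 0 and 27 counts in OFBI and 16, 5 and 17 in Naive libraries. Cyp3a11, a drug-oxidising enzyme, had 20 counts in OFBI replicate 3 and 0 in OFBI replicates 1 and 2, against 4, 0 and 0 in Naive libraries. Cyp2c29 was at 0 in all 6 libraries, the only gene of the 33 without a count.

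**Figure D3:**
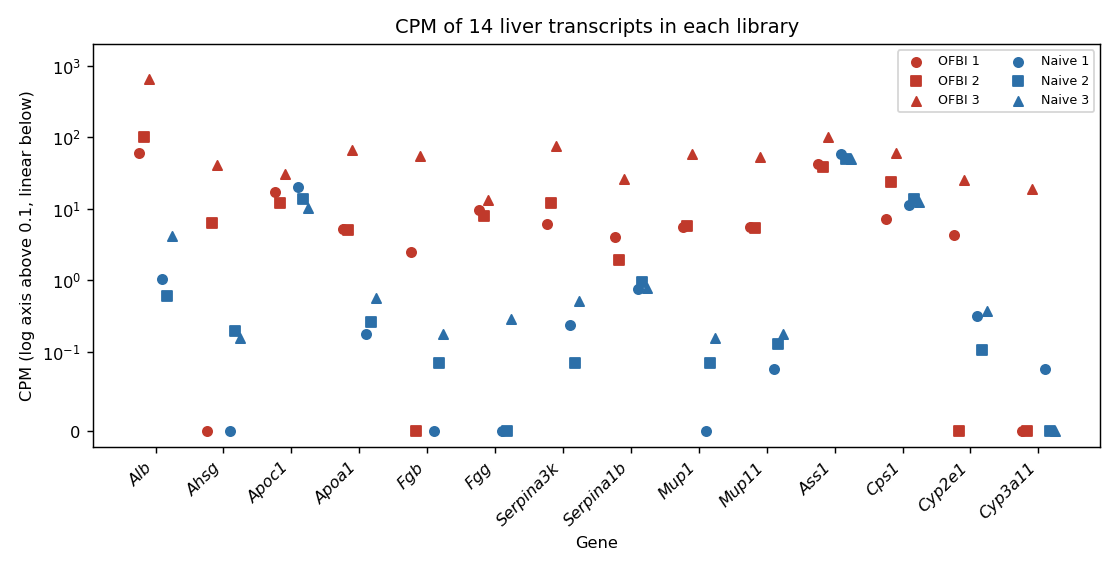
CPM of 14 liver transcripts, the most abundant pair of each role, in each library, on an axis that is logarithmic above 0.1 and linear below, with OFBI in red and Naive in blue and the marker shape giving the replicate. OFBI replicate 3 (red triangles) is the highest library for all 14 genes. The pairs were chosen by mean CPM over the 6 libraries, which favours genes high in OFBI replicate 3. Tdo2, Serpinc1 and Apoc3, not among the 14, are at 0 there. The groups overlap for Apoc1, Ass1 and Cps1 and for genes that reach 0 in an OFBI library.

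Per kilobase of exonic length, Alb was the most abundant of the 33 genes in OFBI corneas, at a mean of 115 CPM per kb, followed by Apoc1 at 26.9, Ass1 at 25.0, Apoa1 at 20.5 and Apoa2 at 16.8. In Naive corneas the order began with Ass1 at 21.9 CPM per kb, Apoc1 at 19.7 and Cps1 at 2.24, and Alb followed at 0.822. The OFBI SD of Apoa1, Alb and Apoa2 was larger than their mean, so this order does not exceed the spread over libraries. In Naive libraries, Ass1 and Apoc1 did not differ beyond their spread per length either.

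Of the 33 genes, 21, 23 and 29 were above 0 in OFBI replicates 1 to 3 and 15, 23 and 26 in Naive replicates 1 to 3. The filter on low counts let 16 of the 33 into the fit over 13941 genes, and 17 were not tested. Several of those 16 could pass only through the group in which they are high. Of the 16, 11 were called higher in OFBI and 0 lower (0 also by DESeq2, and 0 before adjustment) at an adjusted p below 0.05 (quasi-likelihood test of edgeR, Benjamini-Hochberg adjustment), where 8.41% of all tested genes were called higher and 10.4% lower. Since the list was chosen on this contrast, nothing is read from that count. The 11 were Alb, Apoa1, Apob, Fgg, Serpina3k, Mup1, Mup7, Mup11, Mup20, Mat1a and Tat, and those not called were Apoc1, Serpina1b, Serpinc1, Cps1 and Ass1. The fitted log2 fold changes of the 16 ran between 0.15 and 8.04 with a median of 6.54, against a median of -0.20 over all genes tested. Without OFBI replicate 3 the median was 4.31. CPM values of OFBI lay above those of Naive without overlap for 12 of the 16, and for 16.4% of all tested genes. DESeq2 called 12.8% of all genes higher and 12% lower, and 22 of 32 liver genes higher. Leaving out Naive replicate 1, 2 or 3 left edgeR with 0 of 18 liver genes called each time, though 13 had an unadjusted p below 0.05, and with 0.802%, 0% and 0.793% of all genes called higher. DESeq2 then gave 16, 15 and 18 liver genes and 10%, 7.9% and 8.82% of all genes. Limma-voom gave 10 liver genes each time and 10.9%, 8.57% and 9.98% of all genes. Library size as the only scaling again gave 11 of 16, where 6.21% of all genes were called higher. Among all genes that choice gave 866 higher and 2038 lower calls, or 29.8% higher, against 1173 and 1446, or 44.8% higher, with TMM scaling, and it moved the median over all genes to -0.40.

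If the counts of a gene followed depth, the OFBI group as a whole would hold far fewer counts than the Naive group. Summed OFBI counts exceeded summed Naive counts for 24 of the 32 liver genes with any count, and for 1.69% of 16934 genes. This measure comes from the contrast on which the genes were chosen and is a description. A comparison within the OFBI group does not use the Naive libraries. OFBI replicate 3, the shallowest library, had a higher count than both for 22 of 32 liver genes, against 5% of 13801 genes. Among genes with 40 or more OFBI counts, this held for 11 of 17 liver genes and for 2% of 10292 genes. The high values of OFBI replicate 3 also raised the OFBI means on which the list was drawn up, so these counts too are descriptions.

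The count in OFBI replicate 3 divided by the mean count in OFBI replicates 1 and 2 gives the same comparison gene by gene. For the library totals the log2 of this ratio was -1.53. The log2 ratio exists only where both counts are above 0, which leaves out Serpinc1, Tdo2 and Apoc3, at 0 in OFBI replicate 3, and Apoa2, Fabp1, Serpina1a and Cyp3a11, at 0 in OFBI replicates 1 and 2. Over the 25 liver genes with a ratio the median was 1.70, and 22 of the 25 ratios were above 0. Over the 10035 genes with a ratio it was -1.58, and over the 9220 genes with 40 or more OFBI counts it was -1.64. Of those 9220 genes, 0.4% had a ratio at or above the median of the liver genes. None of these 25 fell below the ratio of the totals, whereas Serpinc1, Tdo2 and Apoc3 lay below it with a ratio of 0. The lowest of the 25 were Fgg, with 0.5 times the mean count of OFBI replicates 1 and 2, then Apoc1 at a log2 ratio of -0.49 and Ass1 at -0.27. Fgb at 3.86, Gc at 3.32 and Mup3 at 3.09 were the highest, on few counts. Against OFBI replicate 2 alone the median was 1.11, and over the 17 liver genes with 40 or more OFBI counts it was 1.49.

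**Figure D4:**
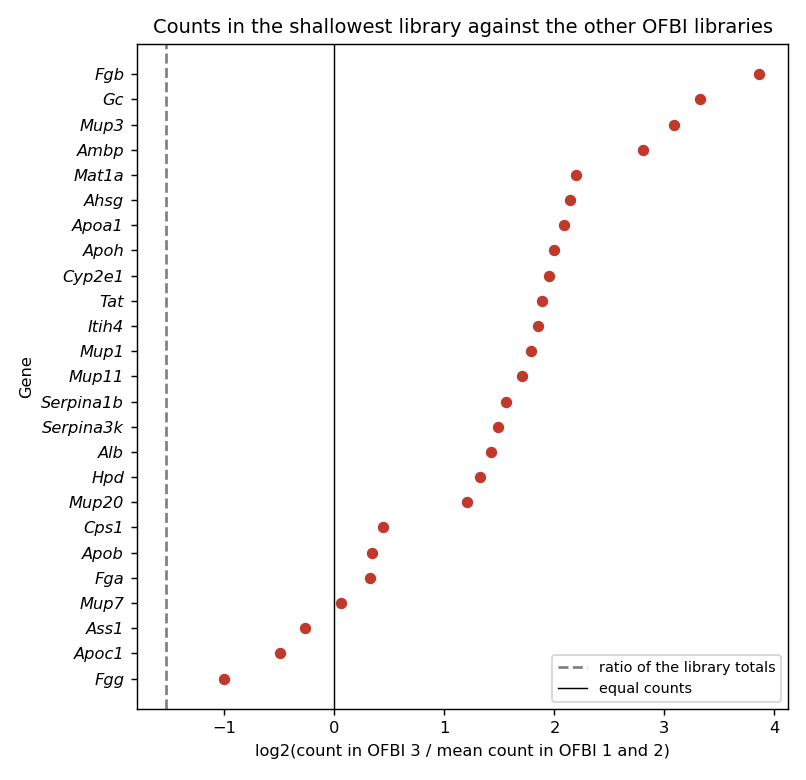
Log2 ratio of the count in OFBI replicate 3 to the mean count in OFBI replicates 1 and 2 for the 25 liver transcripts with a ratio, 1 point per gene, with a dashed line at the ratio of the library totals (-1.53) and a solid line at equal counts. All points lie to the right of the dashed line, and 22 lie to the right of equal counts; Serpinc1, Tdo2 and Apoc3, at 0 in OFBI replicate 3, have no point.

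Among the Naive libraries, whose totals were close, the third replicate again held the most. The summed counts of the 30 genes in OFBI replicate 3 were 2.67 times the mean of OFBI replicates 1 and 2, and those in Naive replicate 3 were 2.62 times the mean of Naive replicates 1 and 2. Naive replicate 3 had the highest count of the 3 for 20 of 31 liver genes, against 23.3% of 16757 genes. Alb set much of this, with 188 counts against 52 and 28. The fibrinogen chains gave 33 counts in Naive replicate 3 and 4 and 8 in Naive replicates 1 and 2. Serpina1b, Serpinc1 and Cyp2e1 did not follow, with like counts in Naive replicates 1 and 3. Depth falls into a shallow group of 3 and a deep group of 3, so no correlation with depth across the 6 libraries is given.

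Whether the genes kept fixed proportions was read from their shares of the 30 genes' counts. Alb made up 42.5%, 51.5% and 47.7% of them in OFBI libraries, with overlapping 95% exact binomial intervals of 33.1% to 51.8%, 43.8% to 60.1% and 42.4% to 52.9%. In Naive libraries its share was 31.0%, 14.2% and 39.2%, with intervals of 17.6% to 47.1%, 5.94% to 27.2% and 30.4% to 48.5%. The interval of Naive replicate 2 lay below all of those of OFBI, and the interval of Naive replicate 3 overlapped all of them. Apoa1 held 3.67%, 2.59% and 4.85% in OFBI and 5.36%, 6.09% and 5.43% in Naive libraries. Serpina3k held 4.32%, 5.99% and 5.54% in OFBI and 7.14%, 2.03% and 4.80% in Naive libraries. For both genes the intervals of all 6 libraries overlapped. The 30 genes gave about 42 and 49 fragments in Naive replicates 1 and 2, so intervals there were wide. Their overlap does not show that a share was constant.

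For some other genes intervals did not overlap, and those given here are examples among the 30 genes and many pairs of libraries. Fgg held 6.70% of the 30 genes' counts in OFBI replicate 1 (3.02% to 13.1%) and 0.970% in OFBI replicate 3 (0.303% to 2.81%), and these intervals did not overlap. Tdo2 held 5.18% in OFBI replicate 2 (2.27% to 9.98%) and 0 of 361 fragments in OFBI replicate 3, whose upper bound was 1.02%. Serpina1b held 2.81%, 0.971% and 1.94% in OFBI libraries, with a highest upper bound of 7.37%. In Naive replicates 1 and 2 it held 22.6% (12.1% to 39.5%) and 22.3% (11.8% to 36.6%), above those bounds, and in Naive replicate 3 it held 7.31% (3.49% to 13.8%). Naive replicate 3 was thus the Naive library nearest to the OFBI libraries in its shares of both Alb and Serpina1b. Across the 30 genes, Pearson's r of log2(CPM + 1) was 0.36 to 0.61 for pairs of OFBI libraries and 0.67 to 0.83 for pairs of Naive libraries. Between the groups it was 0.72, 0.66 and 0.52 for OFBI replicates 1 to 3 with Naive replicate 3, and 0.31 to 0.61 with Naive replicates 1 and 2. By rank (Spearman) the groups were alike, at 0.36 to 0.57 for pairs of OFBI libraries and 0.5 to 0.55 for pairs of Naive libraries. Spearman values with Naive replicate 3 were 0.65, 0.47 and 0.37 for OFBI replicates 1 to 3. OFBI replicate 3 was by rank nearer to Naive replicate 2, at 0.48. These are correlations across genes, which share their libraries and are not independent replicates.

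**Figure D5:**
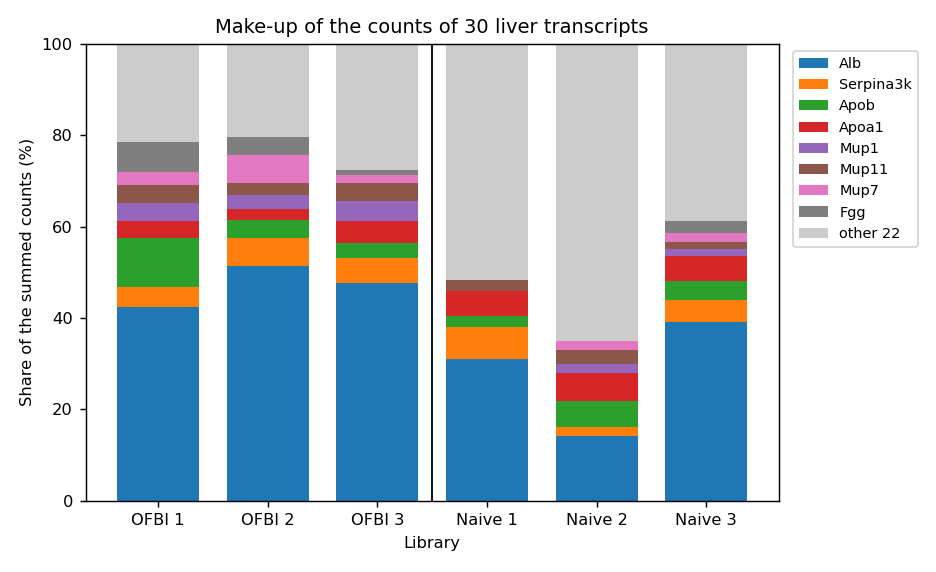
Share of the summed counts of 30 liver transcripts (Apoc1, Cps1 and Ass1 left out), as stacked bars from 0 to 100%, 1 bar per library, OFBI left of Naive. The 8 genes drawn singly hold the largest shares of the pooled OFBI counts, and the other 22 are drawn together. Alb holds 42.5% to 51.5% in OFBI libraries and 14.2% to 39.2% in Naive libraries. The segment of the other 22 genes is larger in every Naive bar, which choosing the 8 genes by their OFBI share favours.

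The genes most like the summed CPM of the 33 were sought among 10639 others with a mean CPM of at least 5. The 10 highest Pearson correlations of log2(CPM + 1) over the 6 libraries were 0.993 to 0.997, for Ptprc, Tfpt, Ankrd13c, Map7, Qtrt1, Suz12, Ilkap, Myo18a, Timeless and Tagln2. With 6 libraries and 1 of them far above the rest, a high value is easily reached. In Naive libraries the summed CPM was mostly that of Apoc1, Cps1 and Ass1, at a mean of 80.0 of 86.0 CPM. Likeness to the other 30 genes was therefore not sought. Ptprc, the pan-leukocyte surface protein CD45, had 26, 26 and 46 counts in OFBI and 184, 145 and 126 in Naive libraries. Its level was 19.8 ± 20.1 CPM in OFBI and 3.18 ± 0.432 CPM in Naive libraries (SD, n = 3 each), so it too was highest in OFBI replicate 3. None of the 10 is a hepatocyte gene of the lists used here.

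Other hepatocyte genes outside the 33 gave a mixed picture. Of 40 further secreted-protein genes, 9 were tested, 3 rose and 1 fell. Of 49 further metabolic genes, 13 were tested, 1 rose and 2 fell. Together 4 of 22 rose, or 18.2%, where 8.41% of all tested genes did. These lists too were chosen with earlier results of these data known, so this share is a description. Pck1, which controls glucose formation, had 24, 36 and 28 counts in OFBI and 5, 4 and 13 in Naive libraries. Its increase was 6.50 on the log2 scale (SE 0.89). Serpina1e, another alpha-1-antitrypsin gene, had 32, 38 and 61 counts in OFBI and 22, 18 and 47 in Naive libraries. Its increase was 5.35 on the log2 scale (SE 0.94). Neither gene would have passed the filter on low counts through its Naive libraries alone, so no p-value is given for them. For both, no OFBI library overlapped a Naive one in CPM. For Pck1, every OFBI count exceeded every Naive count before any scaling for depth.

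Of the other called genes of these lists, Trf and Ttr were higher in OFBI and Arg1, Fah and C8g lower. Trf, the iron carrier transferrin, which many tissues make, had 257, 229 and 95 counts in OFBI and 1446, 1774 and 1673 in Naive libraries, an increase of 1.22 on the log2 scale (SE 0.19, edgeR adjusted p = 0.014). Ttr, the thyroxine carrier that the pigment epithelium of the eye also makes, had 187, 132 and 32 counts in OFBI and 896, 1000 and 1076 in Naive libraries, with a log2 fold change of 1.06 (edgeR adjusted p = 0.046). Arg1, the last urea cycle enzyme, fell by 1.15 on the log2 scale (SE 0.20; edgeR adjusted p = 0.017), with 58.9 ± 15.1 CPM in OFBI and 132 ± 1.73 CPM in Naive libraries (SD, n = 3 each). Fah, the last enzyme of tyrosine breakdown, fell by 1.88 (SE 0.39; edgeR adjusted p = 0.023). C8g, a complement subunit, was called lower with 0 counts in OFBI and 44, 32 and 40 in Naive libraries. Its pooled Naive level of 0.873 CPM lies under the 1.51 CPM to which 3 fragments in the OFBI group correspond, so a difference was not detectable at the OFBI depth. When Naive replicate 1, 2 or 3 was left out, 0 of these genes were called higher by edgeR (6 to 7 had an unadjusted p below 0.05), 5, 6 and 8 by DESeq2, and 4, 4 and 5 by limma-voom.

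Some untested hepatocyte genes had their highest count in OFBI replicate 3. Hpx, the haem carrier hemopexin, had 0, 4 and 67 counts in OFBI and 0, 12 and 16 in Naive libraries. Serpina1c had 0, 0 and 61 counts in OFBI and 7, 8 and 4 in Naive libraries. Uox, the urate oxidase of the mouse liver, had 23 counts in OFBI replicate 3 and 0 elsewhere. Pooled, it was 32.1-fold above the floor of 12 Naive counts, a value that rests on OFBI replicate 3 alone. These 3 genes were picked after their values were seen. Summed OFBI counts exceeded summed Naive counts for 23 of 66 of the further hepatocyte genes, or 34.8%, where 1.69% of all genes did. Some of the 23 held fewer than 12 OFBI counts, such as Cyp8b1 with 4 against 0 and Slc27a2 with 8 against 0. The 1.69% is over all genes with any count and was not matched for abundance. These genes too were listed with earlier results known, so the share is a description.

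Among 12 transcription factors of hepatocytes, 3 were tested and 6 had no count in any library. Cebpa, a C/EBP factor that epithelia also use, rose, with 507, 440 and 204 counts in OFBI and 2893, 2889 and 3187 in Naive libraries (an increase of 1.36 on the log2 scale, SE 0.17, edgeR adjusted p = 0.0090). Hnf4a, the master factor of hepatocytes, had 16, 0 and 15 counts in OFBI and 20, 20 and 16 in Naive libraries. Its level was 4.946, 0 and 14.03 CPM in OFBI and 0.3951, 0.4313 and 0.3525 CPM in Naive libraries, so the groups overlapped. Its log2 fold change was 3.86 (SE 1.25), and Hnf4a was not called (edgeR adjusted p = 0.074, unadjusted p = 0.0175). Prox1 had 0, 8 and 12 counts in OFBI and 263, 266 and 201 in Naive libraries and was not called either.

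Of 15 genes known to be higher in male liver, 14 were found in the tables and 8 were tested, of which 3 were called higher, all of them Mup genes of the 33, and 2 lower. The lower ones were Susd4, which fell by 1.13 on the log2 scale (SE 0.20, edgeR adjusted p = 0.016), and Cyp7b1, at 0 in OFBI and 81, 89 and 111 counts in Naive libraries, at least 1.40-fold lower in OFBI. Of 15 genes known to be higher in female liver, 11 had no count in any library. The 1 tested, Cux2, was called neither by edgeR (adjusted p = 0.22, also above 0.05 unadjusted) nor by DESeq2. Hepatocytes differ along the lobule. Of 12 genes of the pericentral zone, 7 were tested and 0 were called by edgeR (2 before adjustment) and 4 by DESeq2. The smallest p was that of Cyp2a5, with a log2 fold change of -2.20 (edgeR adjusted p = 0.073). Of 12 periportal genes, 8 were tested, with Pck1 called higher and Arg1 lower. The 14 acute-phase genes summed to 3.71, 9.60 and 192 CPM in OFBI and to 2.04, 2.31 and 3.15 CPM in Naive libraries, and 2 of the 14, Fgb and Itih4, are among the 33. The 1 acute-phase gene tested, Lcn2, was not called by edgeR (adjusted p = 0.56), while DESeq2 called 4 of the 14.

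Markers of the other liver cells were few or changed in both directions. Of 8 genes of Kupffer cells, the liver's macrophages, 2 were tested and 0 were called by edgeR, 1 at an unadjusted p below 0.05 and 1 called by DESeq2. Their summed level was 0, 8.32 and 7.48 CPM in OFBI and 2.61, 2.31 and 3.99 CPM in Naive libraries. The 2 Kupffer cell genes without a count in any library were Clec4f and Vsig4. Marco had 0, 14 and 4 counts in OFBI and 0 in every Naive library. Folr2 had 0, 8 and 4 counts in OFBI and 80, 74 and 95 in Naive libraries. Of 8 genes of the liver's sinusoidal endothelium, 3 were tested and 0 were called by edgeR or DESeq2, with 0 at an unadjusted p below 0.05, at 5.61 to 11.5 CPM in OFBI and 6.51 to 7.41 CPM in Naive libraries. Of 8 genes of stellate cells, which store vitamin A, 5 were tested, Des rose and Lrat, Ntm and Reln fell. Hba-a1, a haemoglobin chain of blood cells, fell, and the 8 erythroid genes found in the tables summed to 13.1 to 27.5 CPM in OFBI and to 61.5 to 76.4 CPM in Naive libraries.

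Some genes of other organs were called too, with wide differences among the OFBI libraries. Of 14 cardiomyocyte genes, 10 were tested and 5 rose, Myh6, Myl3, Nppa, Tnni3 and Tnnt2, where 8.41% of all tested genes did. The 14 genes summed to 188, 29.1 and 249 CPM in OFBI and to 22.1, 24.8 and 20.5 CPM in Naive libraries. OFBI replicate 2 thus lay close to the Naive libraries. Myh6, the cardiac myosin heavy chain, had 240, 4 and 65 counts in OFBI and 14, 59 and 22 in Naive libraries, so OFBI replicate 1 held the most. Kap, an androgen-regulated kidney transcript, had 120, 0 and 0 counts in OFBI and 0, 0 and 8 in Naive libraries. The 12 kidney genes summed to 47.9, 1.28 and 7.48 CPM in OFBI and to 10.4 to 11.1 CPM in Naive libraries, with Slc34a1 called higher and Cubn and Nphs1 lower. The 14 genes of the exocrine pancreas stood at 0, 0 and 3.74 CPM in OFBI and at 0, 0.237 and 0.264 CPM in Naive libraries, and 11 of 12 lacrimal and salivary genes had no count in any library. Of the remaining lists, 2 of 12 skeletal muscle, 1 of 8 neuron and 2 of 12 retina and lens genes tested were called higher, against 1, 1 and 3 called lower, and intestine and lung had 1 gene each called lower and testis 0 (0 at an unadjusted p below 0.05 and 0 by DESeq2). The part of other tissues, of depth or of single libraries in the levels of the 33 genes was not tested.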

How the data were processed

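RNA was sequenced from 6 libraries of pooled corneas, with total RNA isolated on RNeasy columns and a stranded kit, per the labels' protocols. The build GRCm38 and the tools HISAT2, StringTie, FastQC and DESeq2 are named, without versions, in the submitters' processing notes. Which annotation and strand setting were used, and how multi-mapping reads were counted, is not given in the sources. Estimated counts per gene were deposited by the authors, 1 table a library, as whole numbers not scaled for depth, so no rounding was needed. The 22040 rows became 22007 symbols after summing 64 rows that share 31 symbols.

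The genes and all lists were chosen with earlier results of these data known. Genes given in full were the 2 with the highest mean CPM of each role, and the other genes were named by the smallest p or the highest CPM of their list unless said otherwise. The quasi-likelihood test of edgeR 4.0.16 (R 4.3.3) was run two-sided on all genes that passed filterByExpr, 13941 in number, with group as its single term, TMM factors of 0.916 to 1.08 and a Benjamini-Hochberg threshold of 0.05. The procedure was tested on simulated data. CPM values are scaled by TMM. DESeq2 1.42.0, limma-voom (limma 3.58.1), other scalings and filters, counts divided by 4, thinned libraries and leaving out each library were alternatives. Libraries of a group differed beyond sampling noise (mean chi-square per gene 17.7 to 61.5) and were counted as separate samples. All 6 carry batch number 4. No source says that the pools of a group came from separate cages or days, so p-values measure the spread between these libraries. Lengths and gene coordinates come from GENCODE mouse release 21 on GRCm38, by symbol.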

Additional observations from a re-analysis of the deposited data

How the results depend on the processing

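Of all genes, 2619 were called in either direction. This became 793 with a replicate block, 1645 after thinning Naive libraries to about the total of OFBI replicate 1, 1432 with all libraries thinned to the shallowest and 222 at an adjusted p below 0.01, and ran between 0 and 3676 over the fits without 1 library. The count of 0 came without Naive replicate 2, by edgeR, with 2441 genes at an unadjusted p below 0.05. DESeq2 called 1537 and limma-voom 1566 there.

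Liver genes called higher, 11 of 16, became 7 with the replicate block (3.87% of all genes), 1 of 4 tested with all libraries thinned (9.92%), 0 at an adjusted p below 0.01 (13 at an unadjusted p below 0.05) and 22 of 32 by DESeq2, with 0 to 18 over the fits without 1 library. The further hepatocyte genes called higher, 4, became 2, 1 and 14 with thinning, the stricter threshold and DESeq2, with 0 to 6 without 1 library by edgeR and up to 8 by DESeq2. Same-numbered libraries did not deviate together (correlations -0.0134, -0.0241 and 0.00795), so the number does not pair them.

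The median log2 fold change of the tested liver genes, 6.54, was 1.15 with all libraries thinned, where 4 were tested, and 4.31 to 6.95 over the edgeR fits without 1 library. With a Naive library left out it reached 7.38 by DESeq2 and 4.71 by limma-voom. The log2 ratio of summed CPM, 2.97, was 6.54 without Apoc1, Cps1 and Ass1, and 1.48 to 3.34 without 1 library. The median log2 ratio of OFBI replicate 3 to the other OFBI libraries, 1.70, was 1.49 for genes with 40 or more counts and 1.11 against OFBI replicate 2 alone. The sign of Ass1 turned with library size only (-0.06), without OFBI replicate 3 (-0.39), with limma-voom (-0.23) and with limma-voom without a Naive library (-0.15, -0.25 and -0.26). Without 1 library, Ass1 ran from -0.39 to 0.34 and Apoc1 from -0.02 to 0.75. The cause was not tested. At the OFBI depth, a floor of 3 fragments over the group is 1.51 CPM, against 0.0903 CPM in Naive, so low levels in OFBI cannot be read.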
